A study of Homo sapiens with 30 samples.

Results

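Gene expression at 7.5 cGy was compared with that at 5 cGy in GM15036 and GM15510, 2 established lines of human lymphoblastoid cells. Such lines are made by growing out B cells that carry Epstein-Barr virus. The arrays were chosen by the dose in their titles: 6 at 7.5 cGy and 6 at 5 cGy, 3 of each in each line, which is 12 of the 30 arrays of the series. The groups were GM15036 at 7.5 cGy, GM15036 at 5 cGy, GM15510 at 7.5 cGy and GM15510 at 5 cGy. Cells of all groups grew in suspension in MEM with serum and received gamma radiation of caesium 137, per the labels' protocols. In the series design text these doses stand in Gy, and the unit of the sample labels is used here. Doses of 1, 2.5 and 10 cGy made up the remaining 18 arrays, and no unirradiated group was analysed here. How long after irradiation the RNA was taken is not given. The labels give the name of each line, but do not tell whether replicate arrays are separate cultures. The p-values therefore cover only array-to-array spread, possibly technical, and precision is limited by the count of arrays.

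Ionizing radiation breaks DNA, and cells answer through the kinase ATM, downstream of which they induce genes of arrest and death such as CDKN1A, MDM2 and FAS. Lymphoblastoid cells are also secretory and antigen-presenting cells: they make immunoglobulin and HLA molecules, which enter the endoplasmic reticulum (ER) as they are made, are glycosylated and folded there, and travel to the surface. ER folding capacity is set by the unfolded protein response, in which factors such as XBP1 and ATF6 bind short promoter elements. Ribosomal proteins, translation factors and other housekeeping genes make up much of the messenger RNA on such arrays.

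Values below are array signals scaled to a common array level, and changes are differences in log2(signal + 4), 7.5 minus 5 cGy, with the standard error (SE) of the fit. A change on this scale understates that of dim probe sets. Tests are limma's on 13331 of 22283 probe sets, adjusted by the Benjamini-Hochberg method over all of them, and a probe set passed at an adjusted p under 0.05. A signal from bulk RNA cannot tell fewer cells with a transcript from less of it in each cell. Of the markers that define the label, PAX5 had a median signal of 559 over the 12 arrays, MS4A1 of 299, CD79B of 52.9 and CD79A of 36.0. The monocyte marker CD14 had 1.17, the T cell marker CD3E 15.2 and the erythroid gene HBB 12.4. These medians pool groups that were not alike. Of 35 tested genes of B cell identity 0 rose and 4 fell in GM15036, MS4A1 among the latter. In GM15510, 1 rose and 2 fell, the latter being MS4A1 and PAX5. Among all tested probe sets 2.62% rose and 3.49% fell in GM15036, and 1.13% rose and 0.758% fell in GM15510. The change also differed between the lines for PAX5 and CD79A, in opposite directions.

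The arrays differed in brightness before scaling, and in opposite directions in the lines. Brightness, here a trimmed mean taken before scaling, was 32.4 ± 4.73 at 7.5 cGy and 51.3 ± 3.47 at 5 cGy in GM15036 (SD, n = 3 each). In GM15510 the 3 arrays at 7.5 cGy measured 43.8, 86.2 and 73.2, against 19.5, 28.1 and 69.3 at 5 cGy. The 5 cGy arrays of GM15510 were unlike each other: replicates 1 and 2b were dim, with log2 ratios of 3-prime to 5-prime ACTB signal, a sign of RNA integrity and amplification, of 5.52 and 5.48, and replicate 3 was bright, with a ratio of 3.43. That ratio was 3.78 ± 0.38 at 7.5 cGy in GM15510, and 5.40 ± 0.15 at 7.5 cGy against 5.03 ± 0.07 at 5 cGy in GM15036. The GAPDH ratio was 2.82 ± 0.28 at 7.5 cGy and 2.47 ± 0.16 at 5 cGy in GM15036, and 2.43 ± 0.09 against 2.36 ± 0.04 in GM15510. Exact two-sided permutation tests within a line, which cannot go below p = 0.1 with 3 arrays against 3, gave p = 0.1 for brightness and for the ACTB ratio in GM15036, and p = 0.2 and 0.3 in GM15510. Brightness and the ACTB ratio differed between the doses in opposite directions in the lines, as many genes below did. The part of both measures in the gene results was not tested beyond the fits that hold each as a covariate, given below. The mean GAPDH ratio was higher at 7.5 cGy in both lines, by 0.35 in GM15036 and 0.07 in GM15510. For it, exact permutation tests within a line gave p = 0.2 in GM15036 and p = 0.3 in GM15510. An exact permutation test over both lines gave p = 0.055, and that exact permutation test cannot go below p = 0.005. No fit held the GAPDH ratio as a covariate, so its part in genes that moved alike in both lines was not tested.

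**Figure D1:**
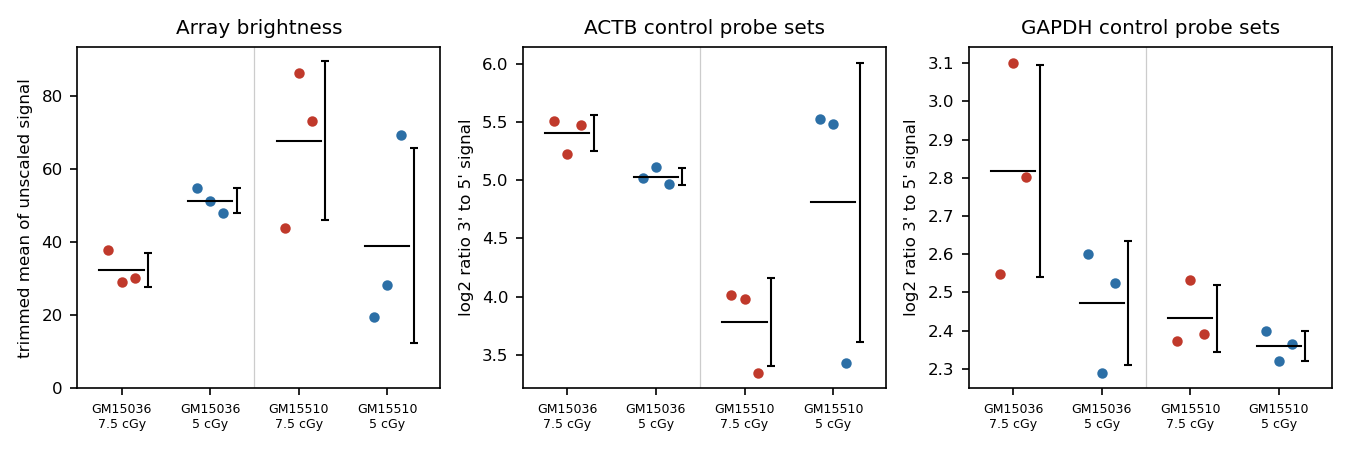
Brightness (trimmed mean of unscaled signal) and log2 ratios of 3-prime to 5-prime signal of the ACTB and GAPDH control probe sets, by line and dose. Points are arrays, horizontal lines are means and bars at the side are SDs of 3 arrays. In GM15036 the 7.5 cGy arrays were all dimmer than the 5 cGy arrays, and in GM15510 a single 5 cGy array lay among the bright ones.

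The step was read first as the mean of both lines, which weighs them equally. By limma 130 probe sets passed, which is 0.975% of those tested, with 72 higher and 58 lower at 7.5 cGy. The median change over all tested probe sets was -0.0073. Of the 130, 41 (0.308% of those tested) had 3 arrays at 7.5 cGy that did not overlap the 3 at 5 cGy in either line and moved the same way in both. The count is sensitive to the fit: 23 passed with the 12 arrays alone, and 3, namely GNG5, CTSZ and MS4A1, in an additive fit of line and dose on those arrays. The count was 45 to 71 without any one of GM15036 5 cGy arrays a, b and c, GM15036 7.5 cGy arrays b and c, or GM15510 7.5 cGy arrays 1 and 3.

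GNG5, which encodes a gamma subunit of heterotrimeric G proteins, rose in both lines. Its signal was 406, 495 and 524 at 7.5 cGy against 313, 298 and 353 at 5 cGy in GM15036, and 487, 449 and 496 at 7.5 cGy against 256, 311 and 348 at 5 cGy in GM15510. The doses did not overlap in either line. The change over both lines was 0.60 (adjusted p = 0.00011), and it passed in each line, at 0.55 ± 0.12 in GM15036 and 0.65 ± 0.12 in GM15510.

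CTSZ, a lysosomal carboxypeptidase, fell by 0.71 over both lines (adjusted p = 9.1e-05). The 7.5 cGy arrays gave 78.7, 88.0 and 70.2 in GM15036, against 117, 122 and 132 at 5 cGy, and 110, 158 and 108 in GM15510, against 217, 207 and 227 at 5 cGy. All 6 arrays at 7.5 cGy lay below the arrays of the same line at 5 cGy. MS4A1, the B cell surface protein CD20, had signals of 226, 201 and 232 at 7.5 cGy against 334, 350 and 334 at 5 cGy in GM15036, and of 275, 253 and 203 against 339, 331 and 323 in GM15510. It fell by 0.53 over both lines (adjusted p = 9.1e-05), and the second MS4A1 probe set also passed in the same direction.

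EBP, an isomerase of cholesterol synthesis, fell by 0.57 over both lines (adjusted p = 0.004), with 54.9, 65.4 and 62.5 at 7.5 cGy against 74.9, 116 and 86.2 at 5 cGy in GM15036, and 140, 141 and 135 against 193, 280 and 169 in GM15510. Of its 3 probe sets 1 passed over both lines. EBP, CTSZ, MS4A1, GNG5 and SMARCA4 hold all 5 probe sets that passed in both lines in the same direction. SMARCA4, an ATPase of chromatin remodelling that was picked after its values were seen, rose by 0.38 in GM15036 and by 0.41 in GM15510. EBP no longer passed over both lines with the 12 arrays alone, whereas GNG5, CTSZ and MS4A1 passed there. Within GM15510, the calls of MS4A1 and SMARCA4 were lost without 7.5 cGy array 3, and that of EBP without 5 cGy array 2b or any 7.5 cGy array. In GM15036 that of SMARCA4 was lost without 5 cGy array c, and that of EBP without 5 cGy array b or 7.5 cGy array a.

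Among stress and signalling genes, GADD45B, which activates stress kinases, rose by 0.44 over both lines (adjusted p = 0.0081), with 318, 276 and 333 at 7.5 cGy against 269, 240 and 243 at 5 cGy in GM15036, and 220, 188 and 239 against 129, 139 and 158 in GM15510. Of 4 GADD45B probe sets 1 passed. MAP4K1, a kinase of lymphocyte receptor signalling, rose by 0.47 (adjusted p = 0.0089), and 1 of its 3 probe sets passed over both lines. GADD45B and MAP4K1 both lost the call when the dim GM15510 arrays at 5 cGy were left out. ETV5, an ETS-family transcription factor, rose by 0.97 (adjusted p = 0.026) and was dim, with 29.2, 18.3 and 35.6 at 7.5 cGy against 12.8, 7.64 and 13.5 at 5 cGy in GM15036, and 34.5, 38 and 39.1 against 11.3, 20.5 and 24.1 in GM15510. Its call was lost without GM15036 5 cGy arrays a or b, GM15036 7.5 cGy array c, GM15510 5 cGy array 1, or GM15510 7.5 cGy arrays 1 or 3. TMEM30A, a subunit of phospholipid flippases, fell by 0.51 (adjusted p = 0.0019), and HIF1A, the oxygen-regulated transcription factor, by 0.37 (adjusted p = 0.020). The TMEM30A change was -0.82 in GM15036 and -0.19 in GM15510, and the lines differed (adjusted p = 0.018). Within single lines, GADD45B passed in GM15510 only, and MAP4K1, ETV5, TMEM30A and HIF1A in GM15036 only. The HIF1A call was lost without GM15036 5 cGy arrays a or b, GM15036 7.5 cGy arrays b or c, or GM15510 7.5 cGy array 1.

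Each line alone showed more. In GM15036, 814 probe sets passed (6.11% of those tested), 349 higher and 465 lower (2.62% and 3.49%). In GM15510, 251 passed (1.88%), 150 higher and 101 lower (1.13% and 0.758%). The 3 arrays at 7.5 cGy did not overlap the 3 at 5 cGy for 3130 probe sets in GM15036, or 23.5% of those tested, and for 2345 in GM15510, or 17.6%. The GM15036 count held with the 6 arrays of that line alone, where 796 passed. GM15510 rests on the spread shared by all 30 arrays: with its own 6 arrays 4 probe sets passed, the lower BTG1, ARF6 and DAZAP1 and the higher HLA-E (0.95, chosen after its value was seen). The GM15510 count was 131 with the ACTB ratio as a covariate, 128 with brightness and 69 without the 2 dim arrays at 5 cGy. It was 136 without 5 cGy array 1, 155 without 5 cGy array 2b, and 144, 151 and 89 without 7.5 cGy arrays 1, 2 and 3. In GM15036 it was 528, 522 and 534 without 5 cGy array a, 5 cGy array b and 7.5 cGy array b.

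Probe sets that passed in both lines mostly moved in opposite directions, and over all tested probe sets the steps were only weakly related. Of the 75 probe sets that passed in both lines, 70 went opposite ways, 23 higher in GM15036 and lower in GM15510 and 47 lower in GM15036 and higher in GM15510. These 70 are 8.6% of the probe sets called in GM15036 and 27.9% of those called in GM15510. Over all 13331 probe sets the changes of the lines had a Pearson r of -0.114 and a Spearman rho of -0.137, as a description, since probe sets on an array share its scaling. Among the GM15036 calls 74.9% had the opposite sign in GM15510, against 55.7% of all tested probe sets. The test of the difference between the steps, GM15036 minus GM15510, passed for 964 probe sets (7.23%), 380 positive and 584 negative (2.85% and 4.38%). By sign, 366 of them were higher in GM15036 and lower in GM15510, 561 were lower in GM15036 and higher in GM15510, and 37 had the same sign in both. The difference passed for 514 probe sets with brightness as a covariate, 617 with the ACTB ratio, and 501 without the 2 dim GM15510 arrays.

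**Figure D2:**
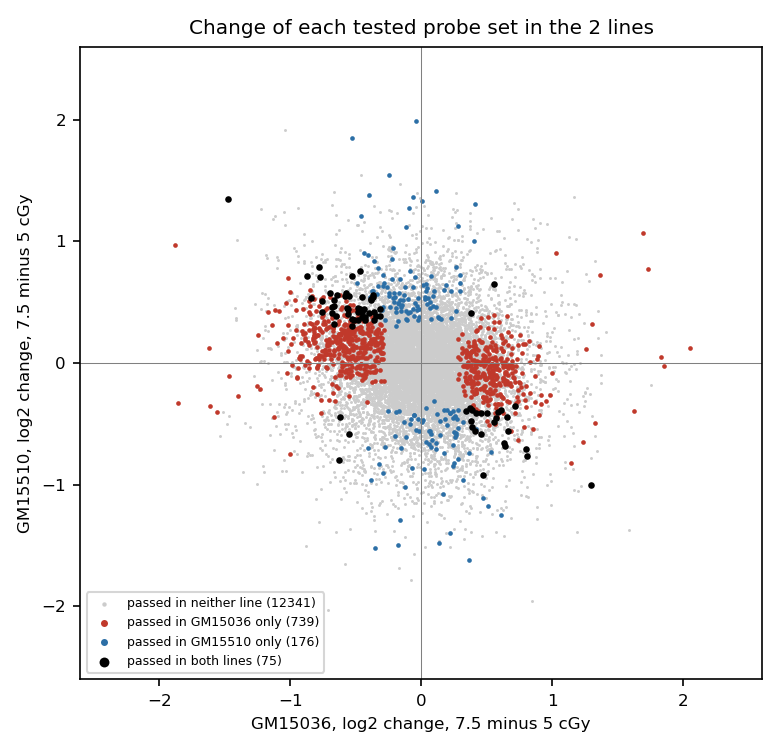
Change of each of the 13331 tested probe sets in GM15036 (x axis) and in GM15510 (y axis), log2, 7.5 minus 5 cGy. Colours show in which line the probe set passed: 739 in GM15036 only, 176 in GM15510 only and 75 in both, of which 70 lie at the upper left or lower right.

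Ribosomal protein genes were the group with the most calls in GM15036. Of 80 listed genes of the cytosolic ribosome, 52 were tested, and 33 rose and 0 fell in GM15036, with a median change of 0.43 beside 0.0049 over all tested probe sets. In GM15510, 0 rose and 3 fell, with a median of -0.16 beside -0.0076. The shares over all tested probe sets were 2.62% higher in GM15036 and 0.758% lower in GM15510. The difference of the steps passed for 29, all positive, with a median of 0.56, and over both lines 9 rose and 0 fell. Among all tested probe sets 2.85% had a positive difference that passed, and 0.54% rose over both lines. With brightness as a covariate 26 rose in GM15036 and 0 fell in GM15510, and with the ACTB ratio 32 and 0. Centring unscaled arrays on their medians instead of scaling removed all calls of the list in GM15036 (median 0.21) and turned its median in GM15510 to 0.18, where 3 rose.

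RPS24, a protein of the small ribosomal subunit, had signals of 875, 880 and 871 at 7.5 cGy against 524, 502 and 592 at 5 cGy in GM15036. In GM15510 it had 734, 712 and 683 at 7.5 cGy against 762, 791 and 753 at 5 cGy. It rose by 0.70 ± 0.08 in GM15036 (adjusted p = 9.7e-07), the change of -0.12 in GM15510 did not pass (adjusted p = 0.56), and the steps differed by 0.81 (adjusted p = 1.1e-05). RPS19 rose by 0.65 in GM15036, RPS27 by 0.57 and RPL27 by 0.54, and none of the 3 passed in GM15510. In all 3 the lines differed, by 0.97, 0.60 and 0.78.

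RPL24, of the large subunit, rose in GM15036 and fell in GM15510. Its signals were 507, 505 and 581 at 7.5 cGy against 363, 306 and 339 at 5 cGy in GM15036, and 403, 389 and 374 at 7.5 cGy against 531, 589 and 474 at 5 cGy in GM15510. The groups of neither line overlapped, and the changes were 0.66 ± 0.10 (adjusted p = 4.2e-05) and -0.44 ± 0.10 (adjusted p = 0.015). RPL27A did the same, at 0.63 and -0.66, and RPS3 at 0.37 and -0.37. The call of RPS3 in GM15510 was lost without 5 cGy arrays 1 or 2b or 7.5 cGy arrays 1 or 3, and that of RPL24 without 5 cGy array 2b or 7.5 cGy array 3.

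RPS12 and RPL23A passed over both lines and in GM15036, but not in GM15510 (adjusted p = 0.11 and 0.17). RPS12 had 2691, 3090 and 3049 at 7.5 cGy against 1999, 1838 and 2019 at 5 cGy in GM15036, and 2163, 1937 and 2084 against 1468, 1732 and 1690 in GM15510, and rose by 0.47 over both (adjusted p = 0.0017). RPL23A rose by 0.42 over both lines (adjusted p = 0.0023). Both lost the call over both lines in the additive fit of the 12 arrays (adjusted p = 0.14 and 0.26). Probe sets of such genes can also bind transcripts of their processed pseudogenes, so single members are uncertain.

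Of 38 tested translation factors, 4 rose and 1 fell in GM15036 (median 0.05) and 0 passed in GM15510 (median -0.02), beside 2.62% higher and 3.49% lower in GM15036 and 1.88% called in GM15510 over all tested probe sets. EIF3F, a subunit of the initiation factor that binds the small ribosomal subunit, had 718, 741 and 668 at 7.5 cGy against 474, 501 and 466 at 5 cGy in GM15036 and rose by 0.56 (adjusted p = 0.00046). The difference of its steps was 0.58. EIF4B, which aids the helicase that unwinds messenger RNA, rose by 0.51 in GM15036, and 1 of its 3 probe sets passed. That call was lost without GM15036 5 cGy array b or 7.5 cGy array b.

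In the respiratory chain and ATP synthase, 62 genes were tested, and 8 rose and 3 fell in GM15036 (median 0.16), against 0 and 1 in GM15510 (median -0.02). Among all tested probe sets 2.62% rose and 3.49% fell in GM15036, and 1.13% rose and 0.758% fell in GM15510. The GM15510 count of this list is near those shares. ATP5F1E and ATP5ME, small subunits of ATP synthase, rose in GM15036 by 0.53 and 0.55, and NDUFA1 of complex I by 0.46. ATP5F1B, the catalytic beta subunit, fell by 0.34 in GM15036, with 367, 364 and 389 at 7.5 cGy against 496, 470 and 453 at 5 cGy. That call was lost without GM15036 5 cGy array a or 7.5 cGy array b. The changes of ATP5F1E and ATP5ME in GM15036 were thus opposite in sign to that of ATP5F1B, the 1 catalytic subunit named here. ATP5ME fell in GM15510 by 0.48, a call that was lost without 5 cGy arrays 1 or 2b or 7.5 cGy arrays 2 or 3.

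FTL, the ferritin light chain that stores iron, rose in GM15036 to 1687, 2085 and 1966 at 7.5 cGy, against 1044, 923 and 1122 at 5 cGy. In GM15510 it had 1333, 1359 and 1301 at 7.5 cGy against 1195, 1429 and 1225 at 5 cGy, and those arrays overlapped. The change was 0.89 ± 0.10 in GM15036 (adjusted p = 9.7e-07) and 0.06 in GM15510 (adjusted p = 0.86), and the steps differed by 0.83 (adjusted p = 0.00019). Both tested FTL probe sets rose in GM15036.

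The list on protein entry into the ER was drawn up after values of these arrays had been seen. So were those on ER to Golgi transport, antigen presentation, lysosomes and surface receptors, and the counts of all these lists describe and support nothing. Of 54 tested genes of ER entry, glycosylation and membrane insertion, 0 rose and 10 fell in GM15036 (median -0.19), and 5 rose and 0 fell in GM15510 (median 0.13). The difference of the steps passed for 15, all negative. Among all tested probe sets 2.62% rose and 3.49% fell in GM15036, 1.13% rose and 0.758% fell in GM15510, and 4.38% had a negative difference that passed. The GM15036 counts stayed at 0 and 11 with brightness and with the ACTB ratio as a covariate. In GM15510 5 and 4 rose in those fits, 2 without the dim 5 cGy arrays and 0 with its own 6 arrays.

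EMC7, a subunit of the complex that inserts membrane proteins into the ER, had the smallest adjusted p of all tested probe sets in GM15036. Its signals in GM15036 were 454, 461 and 445 at 7.5 cGy against 882, 800 and 789 at 5 cGy, and in GM15510 803, 805 and 832 against 810, 676 and 722. The 7.5 cGy arrays of GM15036 stood well below all 9 others. It fell by 0.85 ± 0.08 in GM15036 (adjusted p = 6.6e-08), with a change of 0.15 in GM15510 (adjusted p = 0.43) and a difference of -1.002 (adjusted p = 9.1e-07).

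STT3A, the catalytic subunit of the enzyme that transfers sugar chains to asparagine as proteins enter the ER, fell in GM15036 and rose in GM15510. It had 217, 193 and 227 at 7.5 cGy against 304, 313 and 303 at 5 cGy in GM15036, and 206, 240 and 208 at 7.5 cGy against 130, 126 and 137 at 5 cGy in GM15510. The lines thus had like levels at 7.5 cGy and not at 5 cGy. Its changes were -0.53 ± 0.10 (adjusted p = 0.00076) and 0.72 ± 0.10 (adjusted p = 0.00038), with a difference of -1.24 (adjusted p = 9.1e-07). ALG5, which makes the glucose donor for that sugar chain, fell by 0.68 in GM15036 (adjusted p = 4.9e-06), with a difference of -0.94. SEC62, of the channel for proteins that enter after synthesis, had a change of -0.53 in GM15036 and 0.30 in GM15510, and 1 of its 2 probe sets passed in each line. Its GM15510 call was lost without 5 cGy array 1 or 7.5 cGy arrays 1 or 3. SEC61A1, the pore of the main channel, rose by 0.90 in GM15510 (adjusted p = 0.0020), with 180, 148 and 177 at 7.5 cGy against 131, 73.9 and 69.4 at 5 cGy, and its change of -0.43 in GM15036 did not pass (adjusted p = 0.12). The difference of its steps was -1.34.

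Genes of a list of the unfolded protein and amino acid response, ER folding genes among them, showed a like pattern. Of 34 tested, 1 rose and 7 fell in GM15036 (median -0.25), 3 rose and 0 fell in GM15510 (median 0.12), and the difference passed for 1 positive and 10 negative. The shares over all tested probe sets were 2.62% and 3.49% in GM15036, 1.13% and 0.758% in GM15510, and 2.85% and 4.38% in the difference. Over the fits with 1 array left out, 5 to 8 fell in GM15036 and 0 to 3 rose in GM15510. PDIA3, a disulphide isomerase that folds glycoproteins and loads HLA class I, had 665, 611 and 664 at 7.5 cGy against 1047, 1027 and 1001 at 5 cGy in GM15036, and 837, 881 and 855 against 673, 749 and 641 in GM15510. It fell by 0.66 ± 0.08 in GM15036 (adjusted p = 1.5e-06) and rose by 0.32 ± 0.08 in GM15510 (adjusted p = 0.024), with a difference of -0.98. The GM15510 call of PDIA3 was lost when any array of that line at these doses but 5 cGy array 2b was left out.

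Other folding genes of this list were lower at 7.5 cGy in GM15036. HSPA5, the main ER chaperone BiP, had 1246, 1152 and 1088 at 7.5 cGy against 1577, 1488 and 1570 at 5 cGy and fell by 0.41 (adjusted p = 0.0012). PDIA6, another disulphide isomerase, fell by 0.57, and all 4 of its probe sets fell, while 1 of them rose in GM15510. SEL1L, of the complex that removes misfolded proteins, fell by 0.60, and 2 of its 4 probe sets passed. XBP1, the transcription factor that induces folding genes and is needed by plasma cells, fell by 0.44 (adjusted p = 0.011), a call that was lost without 5 cGy array a, 5 cGy array b or 7.5 cGy array b. MANF, a secreted ER stress protein, fell by 0.43 in GM15036 and rose by 0.38 in GM15510, with a difference of -0.80. Its GM15510 call was lost without 5 cGy array 1 or any 7.5 cGy array of that line. ASNS, another gene of the list, also passed as lower in GM15036. ATF4 is raised by translation when eIF2 alpha is phosphorylated, and it drives amino acid genes. It went against the list and rose by 0.52 in GM15036 (adjusted p = 0.00078). ATF4 had 327, 358 and 352 at 7.5 cGy against 253, 236 and 229 at 5 cGy. PRDX4, the peroxiredoxin of the ER, belongs to a different list, that of iron and antioxidant genes. In GM15036 it had 347, 350 and 349 at 7.5 cGy against 595, 576 and 571 at 5 cGy. It fell by 0.73 there (adjusted p = 1.7e-07).

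The ER stress response element, CCAAT, 9 bases of any kind and CCACG, is the promoter element that ATF6 and XBP1 are known to use. It was searched on both strands in windows of 250 bases before to 50 after the start of transcription, taken from RefSeq on GRCh38.p14, and lay in 27 of 35116 windows (0.0769%). Of the genes that hold it 12 were tested, and with 1 probe set a gene 0 rose and 3 fell in GM15036 (median -0.21), namely HSPA5, PDIA6 and XBP1, while 1 rose and 0 fell in GM15510 (median 0.09), namely CRELD2. CRELD2, an ER protein induced by misfolded proteins, rose by 0.52 (adjusted p = 0.022), a call that was lost without 5 cGy arrays 1 or 2b or any 7.5 cGy array of GM15510. Over all tested probe sets 3.49% fell in GM15036 and 1.13% rose in GM15510. SERP1, a small protein of the ER translocation site whose window also holds the element, went the other way in 1 of its 3 probe sets. That probe set, the brightest of the 3 and not the one counted, rose by 0.77 in GM15036 (adjusted p = 1.0e-05) and by 0.42 over both lines (adjusted p = 0.0026), and was named after its values were seen. The 4 windows of HSPA5, PDIA6, XBP1 and CRELD2 are printed because they hold the element in the genes named above, 5′ to 3′ on the strand of the gene, with both ends of the element in capitals and 20 bases on each side. They lie at chr9:125241371-125241429, chr2:10812833-10812891, chr22:28800583-28800641 and chr22:49918534-49918592, the first 3 on the minus strand and the last on the plus strand.
HSPA5: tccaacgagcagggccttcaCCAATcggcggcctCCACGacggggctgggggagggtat
PDIA6: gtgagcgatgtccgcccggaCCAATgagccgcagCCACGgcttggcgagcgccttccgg
XBP1: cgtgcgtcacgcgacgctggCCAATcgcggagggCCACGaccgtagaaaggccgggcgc
CRELD2: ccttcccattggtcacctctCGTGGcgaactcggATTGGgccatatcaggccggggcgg
In CRELD2 the element is on the opposite strand. Its last base lies 48 bases before the start in HSPA5, 68 in PDIA6, 34 in XBP1 and 62 in CRELD2. A match is a description of letters and not a site shown to be bound.

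Further along the secretory route, 33 genes of ER to Golgi cargo and coat proteins were tested. In GM15036 1 rose and 4 fell (median -0.07), beside 2.62% and 3.49% of all tested probe sets. In GM15510 0 rose and 1 fell (median -0.0046), and the median difference of the steps was -0.02. TM9SF2 and TM9SF3 are membrane proteins of the Golgi and endosomes, from the list of lysosomes and tetraspanins. Both fell in GM15036. TM9SF2 had 224, 165 and 189 at 7.5 cGy against 446, 423 and 410 at 5 cGy there, and 556, 569 and 512 against 442, 418 and 456 in GM15510, where the change of 0.31 did not pass (adjusted p = 0.28). It fell by 1.14 ± 0.13 in GM15036 (adjusted p = 1.5e-06), and the lines differed by -1.45. ARF6, a small GTPase of endosome recycling, moved the other way. It was the 1 gene of the list of ER to Golgi cargo and coat proteins that rose in GM15036, and the 1 that fell in GM15510. It had 424, 420 and 379 at 7.5 cGy against 207, 228 and 263 at 5 cGy in GM15036, and 298, 288 and 266 against 491, 468 and 494 in GM15510. The changes were 0.80 ± 0.12 and -0.77 ± 0.12 (adjusted p = 4.8e-05 and 0.00073) with a difference of 1.57, from 1 of 3 ARF6 probe sets.

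Of 30 tested genes of lysosomes and tetraspanins, 0 rose and 10 fell in GM15036 (median -0.38), against 2 and 0 in GM15510 (median 0.20). The shares over all tested probe sets were 2.62% and 3.49% in GM15036, and 1.13% and 0.758% in GM15510. ATP6AP2, an accessory protein of the proton pump, fell by 0.76 in GM15036 (adjusted p = 4.0e-06) and rose by 0.42 in GM15510 (adjusted p = 0.017), with a difference of -1.18. LAMP1, the major lysosomal membrane glycoprotein, rose by 0.58 in GM15510 (adjusted p = 0.00084), with 242, 273 and 275 at 7.5 cGy against 159, 193 and 174 at 5 cGy. In GM15036 its change was -0.17 (adjusted p = 0.37), and 1 of its 3 probe sets passed. The ATP6AP2 call in GM15510 was lost without 5 cGy array 2b or 7.5 cGy array 2.

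Of 31 tested genes of antigen presentation 0 rose and 8 fell in GM15036 (median -0.29), and in GM15510 6 rose and 1 fell (median 0.15). The 1 that fell in GM15510 was CTSZ, described above. Among all tested probe sets 2.62% rose and 3.49% fell in GM15036, and 1.13% rose and 0.758% fell in GM15510. HLA-B, an HLA class I heavy chain, had 1396, 1402 and 1443 at 7.5 cGy against 1790, 1891 and 1803 at 5 cGy in GM15036, and 2027, 1820 and 2037 against 1310, 1425 and 1262 in GM15510. The doses did not overlap in either line, with changes of -0.37 ± 0.09 (adjusted p = 0.0078) and 0.56 ± 0.09 (adjusted p = 0.00073). All 3 HLA-B probe sets fell in GM15036 and 2 rose in GM15510. HLA-C rose by 0.64 in GM15510, where 3 of its 4 probe sets rose, and its change in GM15036 of -0.29 did not pass (adjusted p = 0.10). HLA class I probe sets share sequence with each other and differ between alleles, so the member that a signal belongs to is uncertain. TAP1, which pumps peptides into the ER, fell by 0.45 in GM15036, and its change in GM15510 was 0.35 (adjusted p = 0.075).

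Other genes of this list serve HLA class II. HLA-DRA, the alpha chain of HLA-DR, had 97.3, 97.5 and 97.4 at 7.5 cGy against 195, 206 and 165 at 5 cGy in GM15036, and 218, 210 and 206 against 199, 241 and 174 in GM15510. It fell by 0.92 ± 0.12 in GM15036 (adjusted p = 3.5e-06), where both HLA-DRA probe sets fell, and its change in GM15510 was 0.06 (adjusted p = 0.88). HLA-DPA1 fell by 0.72 in GM15036, and 2 of its 3 probe sets passed. CD74, the invariant chain that guides class II molecules, had 703, 601 and 633 at 7.5 cGy against 461, 447 and 432 at 5 cGy in GM15510 and rose by 0.53 (adjusted p = 0.0013). Its change in GM15036 was 0.03 (adjusted p = 0.93).

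Surface receptors had calls in the same direction in GM15036, where 0 of 50 tested rose and 12 fell (median -0.28), against 1 and 0 in GM15510 (median 0.14). The shares over all tested probe sets were 2.62% and 3.49% in GM15036, and 1.13% and 0.758% in GM15510. The GM15510 count of this list is near those shares. PTPRC, the phosphatase CD45, had 369, 284 and 349 at 7.5 cGy against 625, 628 and 526 at 5 cGy in GM15036, and 878, 929 and 984 against 790, 734 and 766 in GM15510. It fell by 0.83 ± 0.10 in GM15036 (adjusted p = 1.7e-06), with all 3 probe sets falling, and its change in GM15510 was 0.28 (adjusted p = 0.16). ITGB1, the integrin beta-1 chain, fell by 0.76 in GM15036, CD44, the hyaluronan receptor, by 0.63, and CR2, the complement receptor that Epstein-Barr virus uses, by 0.80. Of 7 CD44 probe sets 1 passed. BST2, an interferon-induced surface protein, fell by 0.46 in GM15036. The lists overlap, so some calls are counted more than once. FAS is also in the list of damage-induced genes, CR2 in that of B cell identity and BST2 in that of interferon-stimulated genes. PDIA3 is in that of the unfolded protein and amino acid response and in that of antigen presentation. The summed signal of 16 fibroblast markers was 284 to 345 at 7.5 cGy against 385 to 407 at 5 cGy in GM15036, and 203 to 221 against 171 to 264 in GM15510. Of its 7 tested members 1, the matrix protein gene SPARC, fell by 0.57 in GM15036, a call lost when any single array of that line at these doses was left out, and COL1A1 had a median signal of 20.5 over the 12 arrays. The part of those markers in the surface list was not tested.

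**Figure D3:**
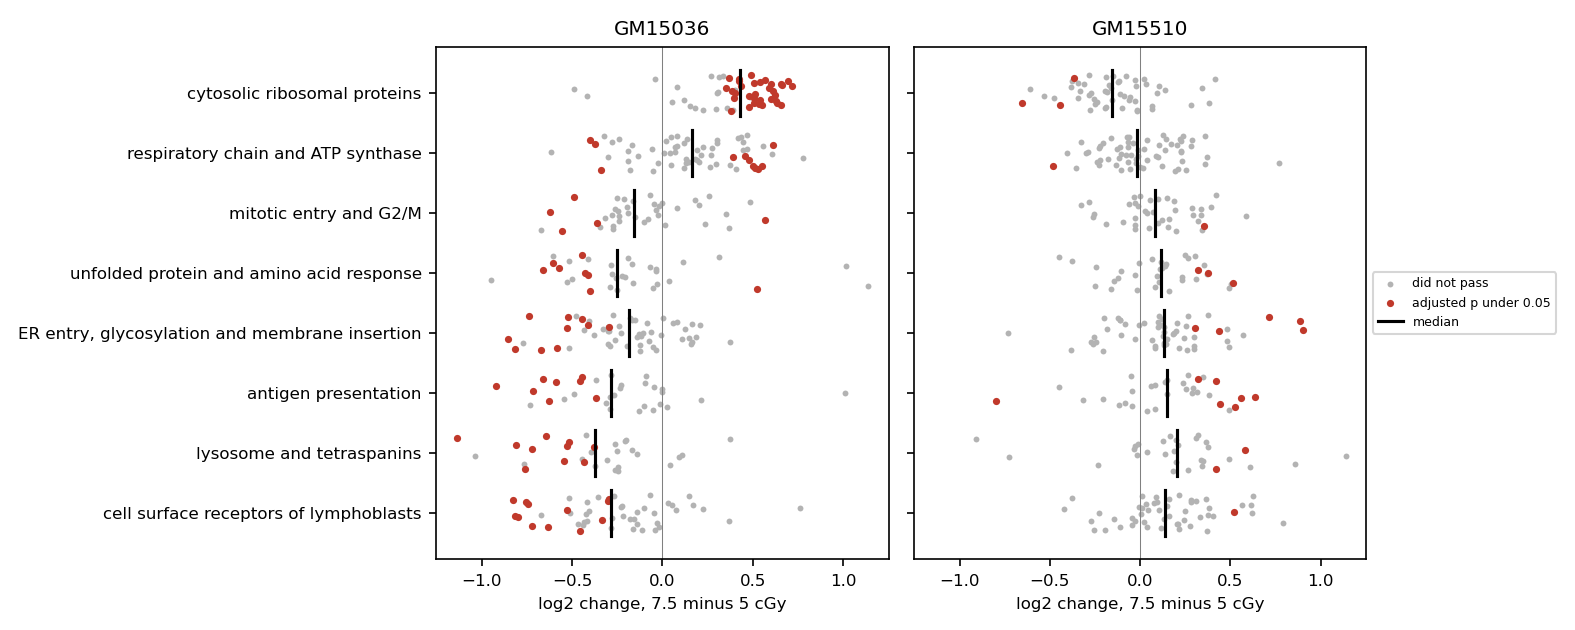
Change of every tested member of 8 gene lists in GM15036 (left) and GM15510 (right), log2, 7.5 minus 5 cGy, with 1 probe set a gene. Red points passed at an adjusted p under 0.05, grey points did not, and black bars are medians: 0.43 in GM15036 and -0.16 in GM15510 for ribosomal proteins, and -0.38 and 0.20 for lysosomes and tetraspanins.

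**Figure D4:**
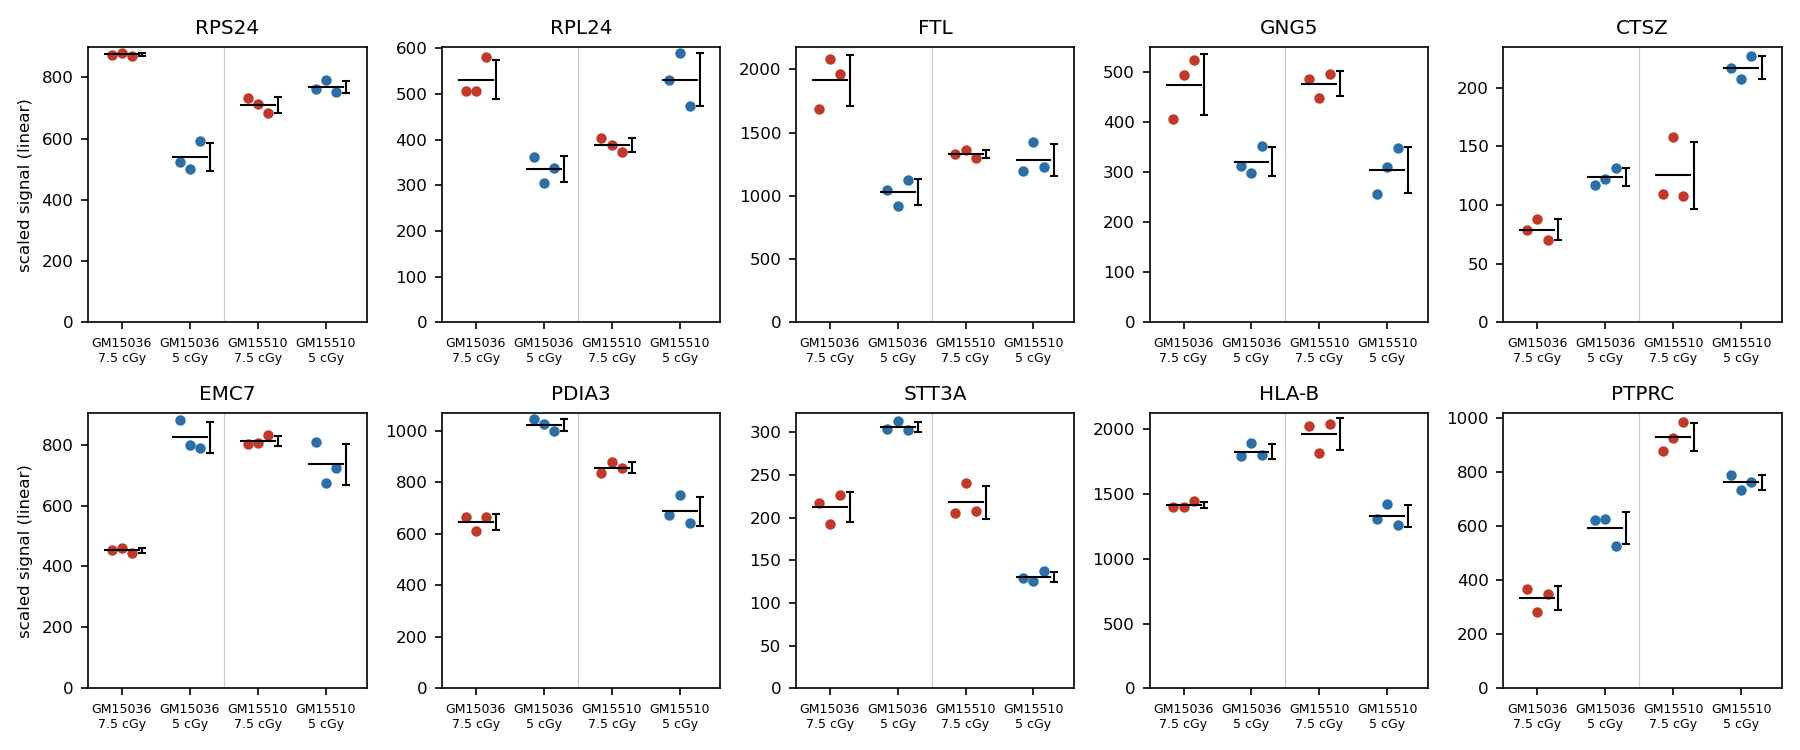
Scaled linear signal of 10 genes on each array, by line and dose. Points are arrays, horizontal lines are means and bars at the side are SDs of 3 arrays. GNG5 and CTSZ moved alike in both lines, RPL24, PDIA3, STT3A and HLA-B moved in opposite directions, and EMC7, RPS24, FTL and PTPRC moved in GM15036 with no call in GM15510.

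Of 16 tested genes of sterol synthesis 0 rose and 3 fell in GM15036 (median -0.12), and 1 rose and 1 fell in GM15510 (median 0.19). The one that fell in GM15510 was EBP, by a probe set that did not pass in GM15036. It is not the EBP probe set described above, which passed in both lines. Among all tested probe sets 2.62% rose and 3.49% fell in GM15036, and 1.13% rose and 0.758% fell in GM15510. SQLE, which makes squalene epoxide and of whose 2 probe sets 1 passed, had 145, 122 and 135 at 7.5 cGy against 243, 245 and 243 at 5 cGy in GM15036, and 283, 238 and 229 against 186, 173 and 176 in GM15510. It fell by 0.85 ± 0.13 in GM15036 (adjusted p = 7.2e-05), and the change of 0.47 in GM15510 did not pass (adjusted p = 0.060), although the arrays of that line did not overlap. SC5D, a desaturase late in cholesterol synthesis, fell by 0.70 in GM15036 and rose by 0.58 in GM15510. The GM15510 call of SC5D was lost without 5 cGy array 2b or 7.5 cGy array 3. STARD7, a carrier of phosphatidylcholine, rose by 0.47 in GM15036 and fell by 0.92 in GM15510 (adjusted p = 0.00069), with 185, 243 and 177 at 7.5 cGy against 403, 445 and 311 at 5 cGy in GM15510. Its call in GM15036 (adjusted p = 0.039) was lost without any single array of that line at these doses but 7.5 cGy array a. P4HA1, a collagen prolyl hydroxylase of the ER that hypoxia induces, fell by 0.67 in GM15036. DLD, a shared subunit of mitochondrial dehydrogenase complexes, fell by 0.36 in GM15036 and rose by 0.42 in GM15510. Its GM15036 call was lost without 5 cGy array a or 7.5 cGy arrays b or c and with brightness as a covariate, and its GM15510 call without 5 cGy array 1 or 7.5 cGy array 3.

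Of 38 tested genes of mitotic entry and G2/M, 1 rose and 4 fell in GM15036 (median -0.16), and 1 rose in GM15510 (median 0.08). Of 44 tested genes of DNA replication and G1/S, 0 rose and 2 fell in GM15036 (median -0.0098), and 2 rose and 0 fell in GM15510 (median 0.07). Over all tested probe sets 2.62% rose and 3.49% fell in GM15036, and 1.13% rose in GM15510. HMMR, a spindle protein, had 154, 167 and 197 at 7.5 cGy against 273, 266 and 262 at 5 cGy in GM15036 and fell by 0.62 (adjusted p = 0.00038). ASPM, which organises spindle poles, fell by 0.56 and CCNB1, the cyclin of mitotic entry, by 0.36. The CCNB1 call was lost without GM15036 5 cGy array a. CDC25A, a phosphatase that activates cyclin-dependent kinases and was named after its values were seen, rose by 0.57 (adjusted p = 0.017), a call lost without GM15036 5 cGy array c or 7.5 cGy array b. MSH6, of mismatch repair, fell by 0.38 in GM15036 and rose by 0.52 in GM15510. The GM15036 call of MSH6 was lost without 5 cGy arrays a or b or 7.5 cGy arrays a or c. With brightness as a covariate it was lost in both lines (adjusted p = 0.081 and 0.059), and in GM15510 also without the dim arrays.

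Of 21 tested genes of a list of damage-induced genes of arrest, death and repair 0 rose and 1 fell in GM15036 (median 0.14) and 0 passed in GM15510 (median -0.12), where the medians over all probe sets were 0.0049 and -0.0076. Over all tested probe sets 6.11% passed in GM15036 and 1.88% in GM15510, so the count of this list is near the background and is no result about it. CDKN1A, which blocks cyclin-dependent kinases, had 219, 241 and 209 at 7.5 cGy against 193, 213 and 195 at 5 cGy in GM15036, and 177, 205 and 177 against 225, 141 and 157 in GM15510. The arrays overlapped in both lines, and the change over both was 0.13 (adjusted p = 0.66). MDM2, a ubiquitin ligase, had a change over both lines of 0.01, GADD45A, a damage-induced stress gene, of -0.38, and BAX, a pore-forming death protein, of 0.09 (adjusted p = 0.99, 0.35 and 0.82). The second BAX probe set rose by 0.87 in GM15036 (adjusted p = 0.013), a call lost without 5 cGy array c or 7.5 cGy arrays b or c. The gene of this list that fell was FAS, the death receptor, with 159, 254 and 181 at 7.5 cGy against 304, 320 and 420 at 5 cGy in GM15036. It fell by 0.82 ± 0.16 (adjusted p = 0.00084), and all 4 FAS probe sets fell. In GM15510 the FAS change was 0.16 (adjusted p = 0.72).

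The remaining response genes gave changes over both lines of -0.24 for ATM, the kinase that senses breaks, -0.12 for CHEK1, a checkpoint kinase, -0.21 for CDK1, the mitotic kinase, and -0.06 for MYC, the growth regulator. Those of JUN and EGR1, immediate-early factors, were -0.23 and -0.05, of HIPK2, a nuclear protein kinase, -0.01, of VAMP8, a vesicle fusion protein, -0.07, and of CYP27A1, a sterol hydroxylase, 0.27. None of these 9 passed over both lines or in either line alone. BBC3 and FOS were not tested. H2AX, the histone that is phosphorylated at breaks, had 134, 152 and 142 at 7.5 cGy against 88.1, 79.0 and 85.8 at 5 cGy in GM15036 and rose by 0.73 (adjusted p = 0.00088). Both tested H2AX probe sets rose there. JUND, a partner in AP-1, rose by 0.72 in GM15036 (adjusted p = 3.2e-05), and ISG15, an interferon-induced modifier, by 0.56 (adjusted p = 0.0054). ISG15 went against its list. Of 35 tested interferon-stimulated genes 1 rose and 3 fell in GM15036 (median -0.06), BST2 and TAP1 among the latter. Beside these, 2.62% rose and 3.49% fell there over all tested probe sets. In GM15510 0 of the 35 rose and 0 fell, beside 1.88% called. Of 38 tested genes of damage sensing and repair, 1 rose and 2 fell in GM15036 and 1 rose in GM15510, which is near the shares over all tested probe sets (2.62%, 3.49% and 1.13%).

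Some probe sets passed with 1 dose below 8.47, the mean signal of the dimmest probe sets tested, and the size of their change is not given, since it depends on values near background and on the 4 added before log2. In GM15036, KCNAB1, a potassium channel subunit, had 10.4, 29.6 and 23.9 at 7.5 cGy against 2.03, 3.09 and 0.442 at 5 cGy (adjusted p = 0.0087). SLC4A4, a bicarbonate transporter, had 5.65, 0.804 and 2.51 at 7.5 cGy against 18.7, 21.4 and 21.9 at 5 cGy (adjusted p = 0.0096). H4C11, a histone H4 gene, and DICER1, the enzyme that cuts microRNA precursors, were higher at 7.5 cGy, with all 3 arrays at 5 cGy below that level. Of 5 DICER1 probe sets 1 rose and 1 fell in GM15036, and 1 of 3 probe sets passed for KCNAB1 and for SLC4A4. The calls of KCNAB1, SLC4A4 and H4C11 were lost without GM15036 7.5 cGy array b, and that of DICER1 without 5 cGy array a or 7.5 cGy array c. SEC24D, a coat protein of vesicles that leave the ER, was lower at 7.5 cGy, where 2 of 3 arrays were below that level, and 1 of its 3 probe sets passed.

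In GM15510, SPRY4, an inhibitor of growth factor signalling, had 17.7, 17.4 and 37.2 at 7.5 cGy against 6.77, 0.917 and 1.75 at 5 cGy (adjusted p = 0.0069), also with the lower dose below that level. NFAT5, a transcription factor of osmotic stress, fell by 1.40, DAZAP1, an RNA-binding protein, by 1.25, and LARS1, the leucyl-tRNA synthetase, by 1.02. The calls of SPRY4 and LARS1 were lost without 7.5 cGy array 3 and that of NFAT5 without 7.5 cGy array 2. BTG1, which slows cell division, had 157, 198 and 171 at 7.5 cGy against 304, 344 and 319 at 5 cGy and fell by 0.87 ± 0.14 (adjusted p = 0.00073). PTMA, prothymosin alpha, rose by 1.30 in GM15036 and fell by 1.00 in GM15510, with 643, 848 and 810 against 309, 367 and 256 in GM15036, and 382, 337 and 314 against 911, 738 and 493 in GM15510. Its difference of 2.30 came from 1 of 2 tested PTMA probe sets, one that can bind transcripts of PTMA pseudogenes. The GM15510 call of PTMA was lost without any single array of that line at these doses but 5 cGy array 3.

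Across all 5 doses, levels of the lists were set beside the compared pair. For ribosomal proteins the median of the members, as the log2 deviation from the line's mean, was -0.09 ± 0.08, -0.17 ± 0.04, -0.16 ± 0.01, 0.26 ± 0.04 and 0.17 ± 0.05 at 1, 2.5, 5, 7.5 and 10 cGy in GM15036 (SD, n = 3 each). In GM15510 it was -0.05 ± 0.08, 0.13 ± 0.05, 0.09 ± 0.07, -0.07 ± 0.04 and -0.14 ± 0.03. The level in GM15036 at 7.5 cGy stayed up at 10 cGy, with arrays of the 2 doses overlapping. For lysosomes and tetraspanins it was 0.10 ± 0.04, -0.03 ± 0.04, 0.21 ± 0.04, -0.18 ± 0.06 and -0.04 ± 0.04 in GM15036, so that 7.5 and 5 cGy lay at the lower and upper ends of the series. In GM15510 it was -0.07 ± 0.04, 0.01 ± 0.11, -0.06 ± 0.07, 0.20 ± 0.06 and 0.06 ± 0.07. ER entry genes ran likewise, at -0.09 ± 0.02 at 7.5 cGy and 0.12 ± 0.02 at 5 cGy in GM15036, and at 0.13 ± 0.0045 at 7.5 cGy and -0.02 ± 0.01 at 5 cGy in GM15510. These levels are descriptions with no test. The lists of lysosomes and ER entry were drawn up after values of these arrays had been seen. Where their 5 and 7.5 cGy levels lie among the doses is therefore no support.

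**Figure D5:**
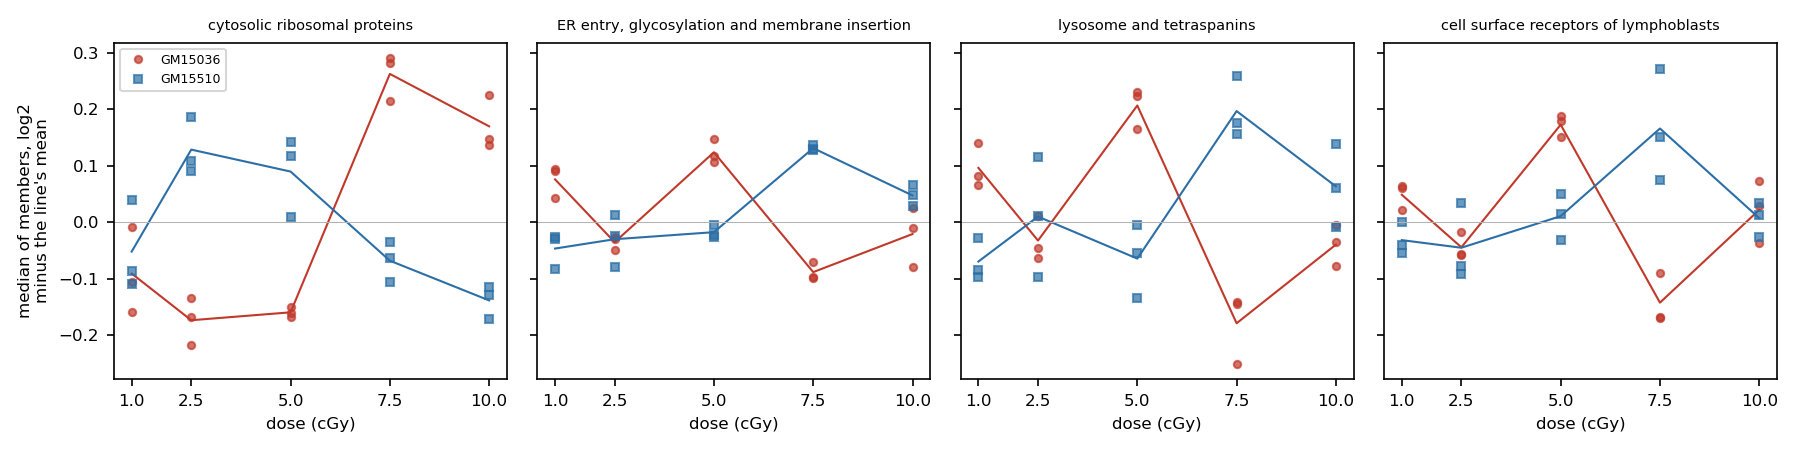
Median over the members of 4 gene lists on each array, as log2 deviation from the mean of the line, against dose in cGy, with 1 point an array and lines through the means of 3. Between 5 and 7.5 cGy the lines cross in all 4 panels. All lists but that of ribosomal proteins were drawn up after values of these arrays had been seen, so their crossing is no support.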

How the data were processed

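RNA of 12 arrays (GM15036 and GM15510, 7.5 and 5 cGy, 3 arrays each) was measured on 3-prime expression arrays. The deposited values are linear intensities of 22283 probe sets on 30 arrays, made with MAS5 per the submitters' processing notes; no version is given in the sources used here. Each array was scaled to a common trimmed mean (2 to 98%, level 50.9), since trimmed means differed 7.91-fold. After addition of 4 and log2, the lowest 40% by mean and 68 control probe sets were left out, which left 13331. R 4.3.3 and limma 3.58.1 fitted all 10 groups (20 residual and 12.3 prior degrees of freedom) with an intensity trend. Benjamini-Hochberg adjustment covered all tested probe sets. Precision is limited by the count of arrays. Of the probe sets, 19071 carried 1 gene symbol, 1043 several and 2169 none, and 19059 matched RefSeq by gene ID. The members and lists were chosen with earlier results of these data known. Named were the 10 highest and 10 lowest changes of each step whose doses did not overlap (for both lines, in either line and with the same sign), the 10 most positive and negative differences, up to 4 members by p of each of 29 lists, and 22 fixed genes, 19 of them tested; not all are printed, and members of the 5 lists added later, members beyond the fourth and CDC25A, SMARCA4 and HLA-E were named after their values were seen. Alternatives were another normalization, pseudocount, filter, spread, sample set, covariate or replicate block and leaving out each array. Equal replicate labels did not pair arrays of the doses: their deviations correlated at -0.016 to 0.033. The fit was tested on simulated data.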

Additional observations from a re-analysis of the deposited data

Results flagged for a closer look

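The step differed between GM15036 and GM15510 for 964 probe sets by limma's test of the difference itself, GM15036 minus GM15510. That is 7.23% of those tested. Of 96 probe sets with values given above, 64 passed it, 21 positive and 43 negative, with adjusted p from 9.1e-07 to 0.049. Of these, 55 had changes of opposite sign in the lines. Many of the 96 were named for a large step in 1 line or by this same test, so these counts describe that choice and support nothing. All differences are in log2(signal + 4). Ribosomal protein genes differed by 1.29 for RPL27A, 1.10 for RPL24, 0.97 for RPS19, 0.81 for RPS24, 0.78 for RPL27, 0.74 for RPS3 and 0.60 for RPS27. Among genes of translation, energy and iron the difference was 0.58 for EIF3F, 0.89 for LARS1, 1.04 for ATP5ME, -0.59 for ATP5F1B, -0.78 for DLD and 0.83 for FTL. Among genes of stress and transcription it was 0.69 for ATF4, 0.87 for JUND, 0.70 for H2AX, 1.62 for NFAT5, -0.69 for XBP1, 0.97 for ISG15, 0.89 for BTG1, 2.30 for PTMA and 1.86 for DAZAP1. ER entry and the route to the Golgi and endosomes gave -1.002 for EMC7, -1.24 for STT3A, -0.94 for ALG5, -1.34 for SEC61A1, -0.83 for SEC62, -1.36 for SEC24D, -1.45 for TM9SF2, -0.81 for TM9SF3, -0.63 for TMEM30A and 1.57 for ARF6. PRDX4 and P4HA1, ER proteins of other lists, gave -0.92 and -0.77. ER folding genes gave -0.98 for PDIA3, -0.80 for MANF, -0.69 for PDIA6, -0.68 for CRELD2, -0.60 for SEL1L and -0.38 for HSPA5. That of HSPA5 was lost in 8 of the 12 fits with 1 array left out and under 6 of 16 other alternatives (highest adjusted p = 0.13). Antigen presentation and lysosomes gave -0.93 for HLA-B, -0.93 for HLA-C, -0.98 for HLA-DRA, -0.67 for HLA-DPA1, -0.79 for TAP1, -0.50 for CD74, -1.18 for ATP6AP2 and -0.75 for LAMP1. Surface proteins and the matrix protein gene SPARC gave -1.11 for PTPRC, -0.85 for ITGB1, -1.13 for CR2, -0.98 for FAS, -0.82 for BST2, -0.68 for CD44 and -0.83 for SPARC. Lipid genes gave -1.32 for SQLE, -1.27 for SC5D and 1.40 for STARD7. Cell cycle and repair genes gave -0.69 for HMMR, -0.76 for ASPM, -0.46 for CCNB1 and -0.90 for MSH6. Probe sets that were near background at 1 dose gave -2.84 for SLC4A4 and -2.04 for SPRY4, and SEC24D above was of this kind, and these sizes depend on the 4 added before log2. Brightness and the ACTB ratio of the arrays moved in opposite directions in the lines at these doses, as given with the array values, and their part in single genes was not tested beyond the fits that hold them as covariates.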

How the results depend on the processing

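Of 140 gene results that passed, 60 passed under every alternative, 104 without each of 12 arrays left out singly, and 55 under both. Unless another cause is given, the cause of a moved count was not tested. Median centring of unscaled arrays moved the median of all probe sets by -0.13 in GM15036, 0.23 in GM15510 and -0.34 in the difference, and gave 0 calls over both lines, 410 in GM15036 (11 higher, 399 lower), 714 in GM15510 (690 and 24) and 1739 in the difference (38 and 1701). It also turned the medians of ribosomal proteins in GM15510 (0.18), the respiratory chain (-0.24) and damage-induced genes (-0.18) in the difference, and EGR1 over both lines (0.0087). Centring after scaling gave 83 over both lines (39 and 44) and splits of 169 and 82 in GM15510 and 267 and 664 in the difference. Over both lines the count was 76 without a filter, 34 without trend, 23 with 12 arrays, 3 in the additive fit and 44 with 12 arrays less the dim ones. In GM15510 it was 108 without trend, 105 with 12 arrays, 4 with its own 6, 128 with brightness, 131 with the ACTB ratio, 69 without the dim arrays and 37 with those and the other doses out. The difference gave 514, 617, 501 and 405 under the last 4 of these. The fits without the dim arrays were chosen after seeing the data, and their lone array is assumed to vary like the other groups. Leaving out 1 array gave 45 to 191 over both lines, 522 to 861 in GM15036, 89 to 275 in GM15510 and 745 to 995 in the difference. The replicate block gave 120, 802, 250 and 919; it pairs arrays by label only. Small changes that did not pass turned sign: HIPK2 to 0.032 by quantile normalization, MDM2 to -0.017 with brightness, -0.024 with the ACTB ratio and -0.13 without dim arrays, BAX to -0.10 there. With 1 array left out HIPK2 was -0.087 to 0.11, MDM2 -0.057 to 0.095, EGR1 -0.13 to 0.069 and CYP27A1 -0.031 to 0.48.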
